A study of Mus musculus with 2 samples.

Results

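The 34 genes described here handle zinc and copper: the metallothioneins Mt1, Mt2 and Mt3, the metal sensor Mtf1, the copper chaperones Atox1 and Ccs, the copper pumps Atp7a and Atp7b, and every protein-coding gene whose symbol starts with Slc30a, Slc31a or Slc39a. They were taken by symbol from the GENCODE M21 mouse annotation, and all 34 were found among the 37315 gene identifiers counted. Lung messenger RNA of the inbred mouse strain C57BL/6 was sequenced in 1 library from exposure to PM2.5 (fine airborne particles) and in 1 control library. The titles are PM-12W and C-12W, and what the 12W stands for is not spelled out. The labels give no sex, age, dose, route or particle source, and no number of animals behind a library. No allele or other treatment is named for either group.

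The PM2.5 library held 57435027 counts and the control library 62788045. Each group is 1 library, so a difference has no replicate check and no p-value can be given. A ratio below is the CPM (count relative to the scaled library size) in the PM2.5 library over that in the control library, with an exact 95% interval that covers counting error only. All differences describe these 2 libraries, not the conditions. Lung markers were high in both libraries: those of alveolar type 2 cells summed to 25770 CPM in the PM2.5 library and 23043 CPM in the control library.

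Zinc and copper are needed by many enzymes but are harmful when free in the cell, so their entry, delivery, storage and exit are each handled by dedicated proteins. Metallothioneins bind both metals through cysteines. Mtf1 is a transcription factor that is activated by zinc, binds metal response elements in promoters, and switches on Mt1, Mt2 and the zinc exporter Slc30a1. The SLC39 (ZIP) proteins bring zinc into the cytosol, and some also carry manganese, iron or cadmium. The SLC30 (ZnT) proteins move zinc out of the cytosol, into organelles or out of the cell. Copper enters through Slc31a1 and is passed by Ccs to superoxide dismutase and by Atox1 to the pumps Atp7a and Atp7b, which load secreted copper enzymes and export copper.

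Of the 34 genes, 28 had a mean of at least 1 CPM over both libraries and are called measured here. A gene is called higher or lower where it differed at least 1.5-fold with a counting interval that excludes a ratio of 1. By that rule 1 measured member was higher in the PM2.5 library, the copper chaperone Atox1, and 9 were lower: Mt2, Mtf1, Atp7a, Slc30a1, Slc30a2, Slc30a4, Slc39a1, Slc39a3 and Slc39a6. The other 18 were neither. Thus 3.57% of the measured members were higher and 32.1% lower, against 14.9% higher and 19.1% lower among all 14518 measured genes. The median log2 ratio of the members was -0.30 (quartiles -0.63 and -0.14), and that of all measured genes was -0.09 (quartiles -0.48 and 0.33). At 2-fold, 3 members were lower (Mt2, Atp7a and Slc30a2) and 0 higher, where 6.04% of all measured genes were lower and 7.25% higher. The ratio was below 1 for 23 of the 28 (82.1%), against 56.4% of all measured genes, and in 19 of the 23 the whole interval lay below 1. The scaling matters here: with plain library totals 17 of 28 ratios were below 1, because the median of all genes then moved to 0.14. A scaling moves every gene by the same amount, so the place of the members among all genes does not depend on it. Of the 28 members 21 lay below the median of all genes, and the members' median lay 0.21 below it. That place does depend on the genes compared. At a mean of at least 10 CPM the median was -0.29 for 25 members and -0.19 for all genes. There 1 member was higher and 8 lower, where 8.31% of all genes were higher and 21.1% lower. Among protein-coding genes with at least 1 CPM, 13.3% were higher and 19.6% lower. With library totals Mt2, Atp7a, Slc30a2 and Slc39a6 were still called lower and Atox1 higher. In lung tissue, fewer cells of a type and less RNA per cell cannot be told apart.

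**Figure D1:**
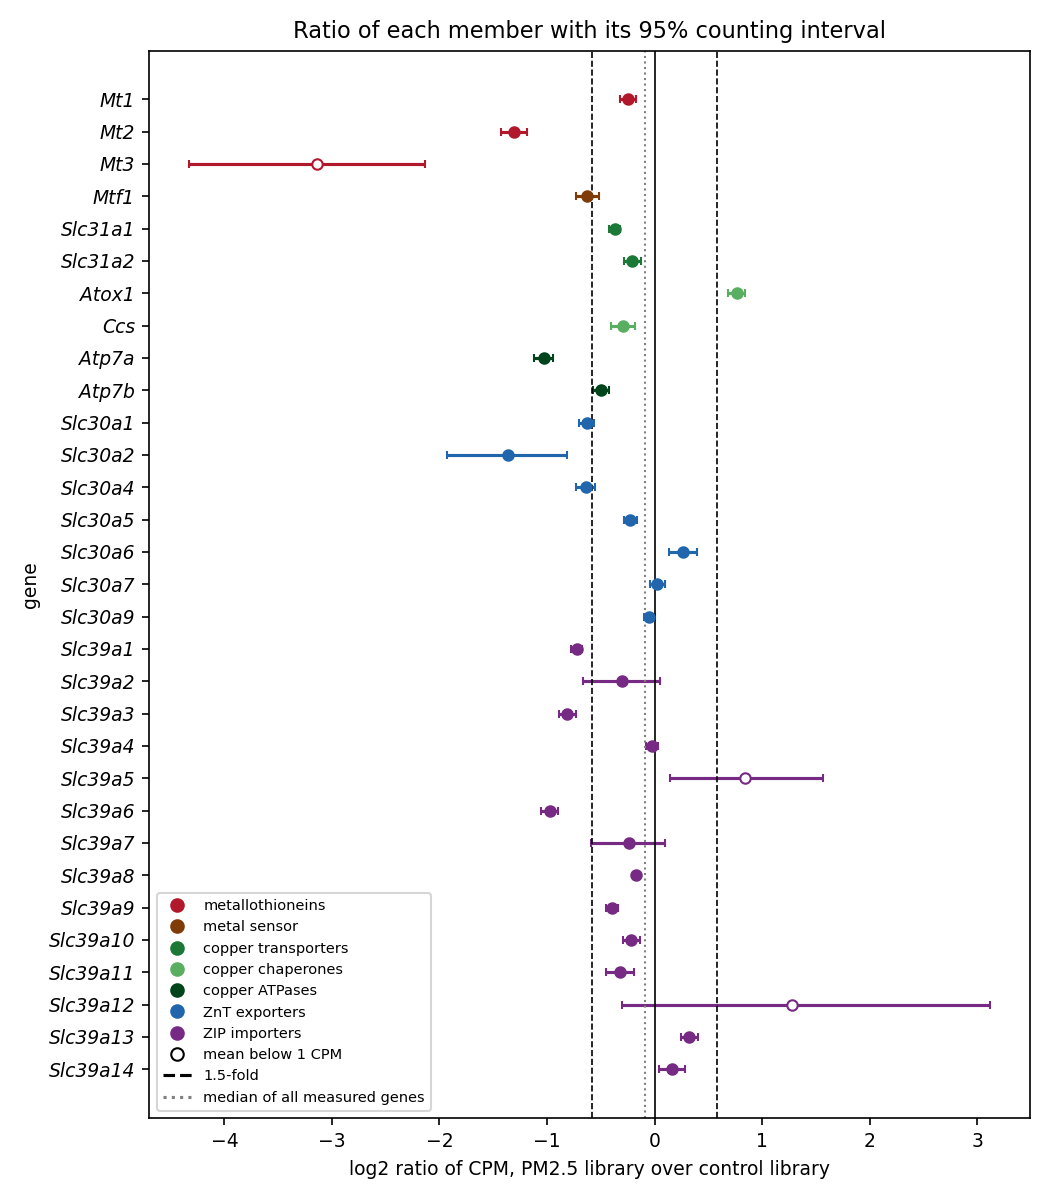
Log2 ratio of CPM, PM2.5 library over control library, for each zinc and copper gene with at least 1 count in each library, coloured by family, with bars for the 95% counting interval and open points for a mean below 1 CPM. Dashed lines mark 1.5-fold, and the dotted line the median of all measured genes at -0.09. Atox1 lies beyond the upper dashed line at 0.77, while Mt2 (-1.31), Slc30a2 (-1.36), Atp7a (-1.03) and Slc39a6 (-0.98) lie farthest below the lower one among the measured members.

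Of the metallothioneins, Mt2 was lower in the PM2.5 library, Mt1 did not reach 1.5-fold and Mt3 was too rare to be counted as measured. Their counts summed to 3343 (53.7 CPM) in the PM2.5 library and 4675 (80.6 CPM) in the control library, a ratio of the sums of 0.666 (0.637 to 0.697). The coding sequences show how alike these genes are. They are given 5′ to 3′ from the GENCODE M21 transcripts without the stop codon, with the cysteine codons in capitals.
Mt1: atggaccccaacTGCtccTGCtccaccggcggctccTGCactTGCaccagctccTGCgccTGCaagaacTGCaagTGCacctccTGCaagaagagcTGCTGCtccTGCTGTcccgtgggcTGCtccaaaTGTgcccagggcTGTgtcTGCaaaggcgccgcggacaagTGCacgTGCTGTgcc
Mt2: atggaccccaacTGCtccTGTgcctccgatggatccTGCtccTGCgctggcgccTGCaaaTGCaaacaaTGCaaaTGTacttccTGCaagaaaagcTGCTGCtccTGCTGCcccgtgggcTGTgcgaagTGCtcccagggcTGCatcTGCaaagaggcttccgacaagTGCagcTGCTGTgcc
Mt3: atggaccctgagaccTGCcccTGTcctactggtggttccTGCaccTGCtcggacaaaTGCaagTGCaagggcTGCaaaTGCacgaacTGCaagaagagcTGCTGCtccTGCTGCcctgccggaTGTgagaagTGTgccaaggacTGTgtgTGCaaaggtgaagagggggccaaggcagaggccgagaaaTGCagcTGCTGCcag
Cysteine takes 20 of 61 codons in Mt1, 20 of 61 in Mt2 and 20 of 68 in Mt3, the metal ligands for which the family is known. Mt1 and Mt2 share 145 of 183 aligned coding bases (79.2%), and Mt3 shares 73.2% with Mt1 and 74.9% with Mt2. A search for near-identical transcripts returned no match between any of the 3. The identity limit of that search lay above these coding identities, so the empty result adds nothing on how alike the coding sequences are.

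Mt2 accounted for most of the lower metallothionein sum. Mt2 (chr8:94172664-94173568, plus strand, GRCm38) had 761 counts in the PM2.5 library and 1753 in the control library, 2.47-fold lower (2.27 to 2.69). That ratio stood at the 2.49th percentile of all measured genes. Mt1 (chr8:94179082-94180327, plus strand) had 2573 counts in the PM2.5 library and 2848 in the control library, a ratio of 0.842 (0.798 to 0.888) that did not reach 1.5-fold. These neighbouring genes, which share the sensor Mtf1, thus differed by unequal amounts. For each Mt1 read there were 0.296 Mt2 reads in the PM2.5 library and 0.616 in the control library, a 2.08-fold lower value (1.88 to 2.30) that does not depend on how libraries are scaled. Mt1 made up 77.0% of metallothionein counts (exact binomial interval 75.5 to 78.4) in the PM2.5 library and 60.9% (59.5 to 62.3) in the control library. Mt3, best known from brain, had 9 counts in the PM2.5 library and 74 in the control library, a ratio of 0.113 (0.0499 to 0.227), but its mean was below 1 CPM and it is not counted among the measured members. The exons of Mt2 overlap the antisense transcript Gm45774 over 432 bases, and whether reads were counted by strand is not stated in the labels.

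The genes beside the metallothionein cluster did not share one direction. In chromosome order Bbs2, a cilium gene, had 1374 counts in the PM2.5 library and 777 in the control library, a ratio of 1.65 (1.51 to 1.80). Mt4, the metallothionein of stratified epithelia, had 0 counts in both libraries. On the other side Nup93, a nuclear pore gene, had 1225 counts in the PM2.5 library and 1570 in the control library, a ratio of 0.727 (0.674 to 0.784). Slc12a3, the kidney salt transporter next to it, had 14 counts in the PM2.5 library and 12 in the control library. Among Mt3, Mt2 and Mt1, which lie between Mt4 and Nup93, the ratio of Mt1 came close to 1 with library totals (log2 -0.018), and that of Mt2 was then -1.08 on the log2 scale.

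The promoters of Mt1, Mt2 and the zinc exporter Slc30a1 are shown because these genes are known targets of Mtf1. Each line gives 300 bases on the plus strand of GRCm38.p6 from RefSeq, 250 before the start base and 50 from it on, with matches to the core of the metal response element in capitals. The core was searched as TGCACNC or TGCGCNC on both strands, counting overlapping matches.
Mt2 (chr8:94172368-94172667): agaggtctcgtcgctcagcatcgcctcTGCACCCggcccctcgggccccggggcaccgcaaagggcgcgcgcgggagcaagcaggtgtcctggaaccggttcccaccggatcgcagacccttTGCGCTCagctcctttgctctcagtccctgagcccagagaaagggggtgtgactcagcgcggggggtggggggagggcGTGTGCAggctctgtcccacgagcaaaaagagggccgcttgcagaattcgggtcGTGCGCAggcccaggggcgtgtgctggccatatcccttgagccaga
Mt1 (chr8:94178839-94179138): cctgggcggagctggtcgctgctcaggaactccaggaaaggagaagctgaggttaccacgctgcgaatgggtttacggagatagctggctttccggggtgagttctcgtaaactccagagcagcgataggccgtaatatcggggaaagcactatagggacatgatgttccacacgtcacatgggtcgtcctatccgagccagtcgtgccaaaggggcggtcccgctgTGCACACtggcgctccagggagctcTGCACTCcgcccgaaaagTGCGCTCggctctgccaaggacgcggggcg
Slc30a1 (chr1:191906531-191906830): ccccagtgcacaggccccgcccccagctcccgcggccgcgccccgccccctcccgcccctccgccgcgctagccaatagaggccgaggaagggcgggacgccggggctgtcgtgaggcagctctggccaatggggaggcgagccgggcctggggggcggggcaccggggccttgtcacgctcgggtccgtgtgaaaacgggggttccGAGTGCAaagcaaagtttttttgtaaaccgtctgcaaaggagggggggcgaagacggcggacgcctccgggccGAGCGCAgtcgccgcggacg
Counting the RefSeq start base as 0, the Mt2 matches begin at -223, -128, -50 and 4, those of Mt1 at -23, 2 and 20, and those of Slc30a1 at -43 and 30. The GENCODE start of Mt2, at 94172664, lies close to the end of its window, and all of its matches lie before it. Of 32851 mouse promoter windows of this length 25.7% held at least 1 match, 7.11% at least 2 and 0.517% at least 4. A match is a run of letters, not a shown binding site.

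A window was found for 29 of the 34 genes, and none was given for Ccs, Slc30a8, Slc39a4, Slc39a6 and Slc39a14. Of the 34 windows of these genes 18 (52.9%) held at least 1 match, against 25.7% of all windows. Each gene, here and over all genes below, was scored by its window with most matches. Counts of genes are thus not comparable with the shares of windows. At least 1 match was present for 17 genes and at least 2 for 7: Mt1, Mt2, Atp7a, Slc30a1, Slc30a2, Slc30a4 and Slc30a10. Of these 7 genes 6 were measured, with ratios between 0.388 and 0.842, and 5 of the 6 were lower. That count was 3 with library totals or the upper quartile, where Slc30a1 and Slc30a4 lost the call, and 4 with the length trend removed, Mt1 among them. Their median log2 ratio was -0.84. The 7 measured members with 1 match had a median of -0.22 with 1 lower, and the 11 with none had a median of -0.24 with 2 lower and 1 higher. Over all measured protein-coding genes the medians lay closer together. They were -0.07 for 6541 genes without a match, -0.15 for 2897 genes with 1 and -0.19 for 1418 genes with 2 or more. In the same order 18.0%, 19.8% and 21.2% of these genes were lower, and 14.6%, 11.9% and 9.45% were higher. This grouping of the members was made after their values were seen and is a description.

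**Figure D2:**
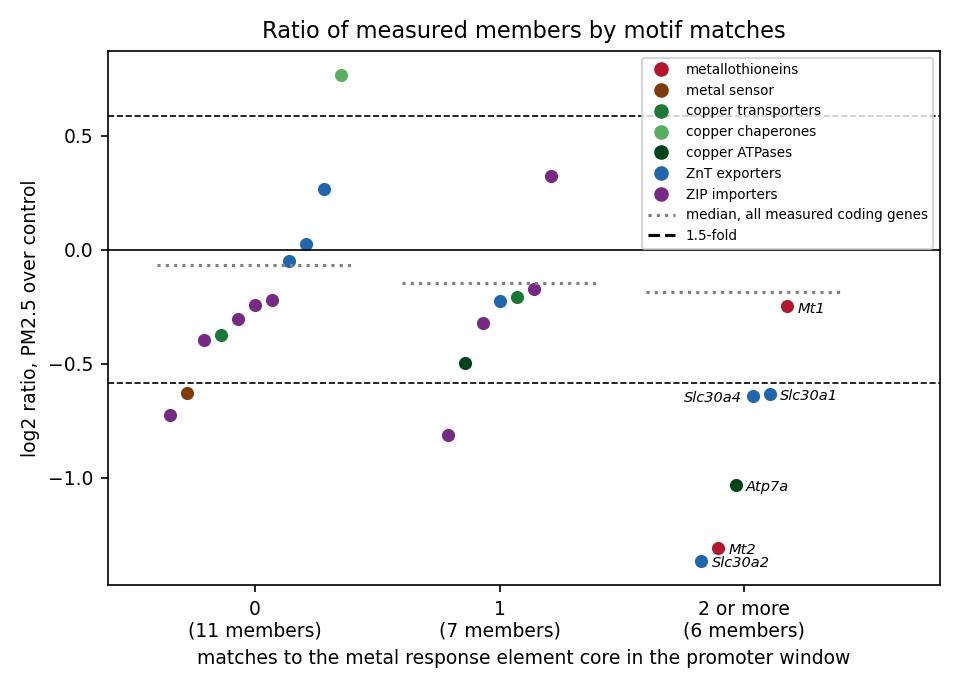
Log2 ratio (PM2.5 over control) of the 24 measured members with a promoter window, placed by the number of matches to the core of the metal response element and coloured by family. Dotted lines mark the median of all measured protein-coding genes with that number of matches, and dashed lines 1.5-fold. The 6 members with 2 or more matches lie between -1.36 (Slc30a2) and -0.25 (Mt1).

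The sensor Mtf1 was lower by a ratio close to the 1.5-fold size. Mtf1 (chr4:124802104-124849800, plus strand) had 1198 counts in the PM2.5 library and 1724 in the control library, 1.54-fold lower (1.43 to 1.66). It was no longer called lower with library totals (log2 -0.40), with the upper quartile (-0.49) or with the length trend removed (-0.45). Part of its exons, 721 bases, is shared with the opposite-strand gene 1110065P20Rik, which had 298 counts in the PM2.5 library and 272 in the control library. A list of 11 other genes known to respond to metals or to the oxidative stress they cause was measured in full. None of the 11 was called higher or lower at 1.5-fold, where 34% of all measured genes were. The median log2 ratio of the 11 was -0.13. The 2 most abundant members of that list were Csrp1, a LIM protein gene, and the selenoprotein gene Selenow. Csrp1 was at a ratio of 0.799 (32143 counts in the PM2.5 library and 37475 in the control library). Selenow was at 1.14 (10346 counts in the PM2.5 library and 8477 in the control library).

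Copper uptake genes differed little. Slc31a1, the high-affinity copper importer, had 5831 counts in the PM2.5 library and 7033 in the control library, a ratio of 0.773 (0.746 to 0.800). Its relative Slc31a2, found on endosomes and lysosomes, had 2455 counts in the PM2.5 library and 2638 in the control library, a ratio of 0.867 (0.821 to 0.917) that came out just above 1 with library totals (log2 0.02). Neither gene reached 1.5-fold. The ratio of Slc31a1 to Slc31a2 reads was 2.38 in the PM2.5 library and 2.67 in the control library. The former over the latter was 0.891 (0.834 to 0.951), and with the length trend removed it was 1.05, on the other side of equality.

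Atox1, which hands copper to the pumps, was the 1 measured member called higher. Atox1 (chr11:55446641-55461239, minus strand) had 3756 counts in the PM2.5 library and 2059 in the control library, a ratio of 1.70 (1.61 to 1.80). Its level per length was the highest of all members in the PM2.5 library, at 111.6 RPKM (reads scaled to transcript length and library size) in the PM2.5 library, and the fourth highest, 65.6 RPKM, in the control library. The coding sequence is printed with the codons of its copper-binding cysteine pair, codons 12 and 15, in capitals, and shows how short this gene is.
Atox1: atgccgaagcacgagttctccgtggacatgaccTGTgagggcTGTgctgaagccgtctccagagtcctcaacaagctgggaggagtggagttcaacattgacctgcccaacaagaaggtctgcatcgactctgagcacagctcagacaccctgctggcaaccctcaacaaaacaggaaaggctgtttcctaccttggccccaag
Its 68 codons hold 3 cysteines, against 20 in each metallothionein. The exons of Atox1 cover 541 bases, and short genes as a class had higher ratios in these libraries. With the trend of the ratio with length removed, the log2 ratio of Atox1 was 0.14 in place of 0.77, under the 1.5-fold size. The second chaperone, Ccs, which loads copper onto Sod1, had 1213 counts in the PM2.5 library and 1385 in the control library, a ratio of 0.816 (0.755 to 0.882). Within each library the Atox1 to Ccs ratio was 3.10 in the PM2.5 library and 1.49 in the control library, a 2.08-fold difference (1.89 to 2.29). With the length trend removed the difference was 1.65-fold.

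Both copper pumps had lower counts, Atp7a by more than Atp7b. Atp7a (chrX:106027276-106124926, plus strand), the gene mutated in human Menkes disease, had 1632 counts in the PM2.5 library and 3111 in the control library, 2.05-fold lower (1.93 to 2.17). Atp7b, the gene mutated in human Wilson disease, had 2574 counts in the PM2.5 library and 3382 in the control library, 1.41-fold lower (1.34 to 1.48) and thus under the 1.5-fold size. There were 0.634 Atp7a reads per Atp7b read in the PM2.5 library and 0.920 in the control library, a ratio of 0.689 (0.636 to 0.746). Atox1 and its target Atp7a lay on opposite sides. Their ratio was 2.30 Atox1 reads per Atp7a read in the PM2.5 library and 0.662 in the control library, 3.48-fold apart (3.21 to 3.77), a comparison chosen after the values were seen, as were the other ratios between members except that of Mt2 to Mt1. Atox1 is short and Atp7a long, and with the length trend removed they were 2.004-fold apart.

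Among the 10 zinc exporters 7 were measured, and 0 were higher, 3 lower and 4 neither. The 3 of 7 stand beside 19.1% lower among all measured genes, and with library totals, the upper quartile or the length trend removed the count was 1, Slc30a2. Their summed counts were 19111 in the PM2.5 library and 20917 in the control library, a ratio of 0.852 (0.835 to 0.868) that with library totals was near 1 (log2 -0.0017). Slc30a1, the exporter of the plasma membrane, had 2887 counts in the PM2.5 library and 4169 in the control library, 1.55-fold lower (1.48 to 1.63). Slc30a4, the gene of the mouse mutant lethal milk, had 1944 counts in the PM2.5 library and 2827 in the control library, 1.56-fold lower (1.47 to 1.65). Slc30a2, known for zinc secretion into human milk, was rare, with 40 counts in the PM2.5 library and 96 in the control library, 2.57-fold lower (1.76 to 3.82). Slc30a1 and Slc30a4 lie just beyond the 1.5-fold size, and both intervals reach below it. Exons of Slc30a1 overlap 1700034H15Rik over 468 bases and those of Slc30a4 overlap 4930417H01Rik over 130 bases, both on the opposite strand. The former had 40 counts in the PM2.5 library and 19 in the control library, the latter 6 and 0.

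The exporters of the secretory pathway and the mitochondria did not reach 1.5-fold. Slc30a5 and Slc30a6, which work as a heterodimer in the early secretory pathway, went to opposite sides: Slc30a5 had 3866 counts in the PM2.5 library and 4208 in the control library (ratio 0.856, 0.820 to 0.895), and Slc30a6 had 1053 in the PM2.5 library and 817 in the control library (log2 ratio 0.26). The ratio of Slc30a5 was just above 1 with library totals (log2 0.01), while that of Slc30a6 stayed above 1 under every scaling. Slc30a7, of the same compartment, had 3734 counts in the PM2.5 library and 3416 in the control library, a ratio of 1.02 (0.972 to 1.07). Slc30a9, a mitochondrial zinc exporter and the family member with most counts, had 5587 counts in the PM2.5 library and 5383 in the control library, a ratio of 0.967 (0.932 to 1.004). For Slc30a7 and Slc30a9 no difference beyond counting error was detectable, although with library totals the log2 ratio was 0.26 for Slc30a7 and 0.18 for Slc30a9. The Slc30a7 transcript shares 1183 bases at 93.4% identity with Elf1, and whether reads were split between them was not tested. Its exons also overlap the pseudogenes Gm6649 over 1165 bases and Gm43106 over 637 bases on the opposite strand. Neither pseudogene is among the identifiers counted. Slc30a3, of synaptic vesicles, and Slc30a8, of insulin granules, had 0 counts in both libraries, and the manganese exporter Slc30a10 had 0 in the PM2.5 library and 1 in the control library. A count of 0 allows up to 3 counts, 0.0482 CPM in the PM2.5 library and 0.0517 CPM in the control library.

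Among the 14 zinc importers 12 were measured, and again 0 were higher, 3 lower and 9 neither. A share of 3 in 12 is near the 19.1% lower among all measured genes. Their summed counts were 47342 in the PM2.5 library and 54672 in the control library, a ratio of 0.807 (0.797 to 0.817) that stayed below 1 under every scaling. Of the 3 lower genes Slc39a6 alone kept the call with library totals, with Slc39a1 at -0.50 and Slc39a3 at -0.58 on the log2 scale. Slc39a1 had 5880 counts in the PM2.5 library and 9061 in the control library, 1.65-fold lower (1.60 to 1.71). Slc39a3, its close relative, had 2118 counts in the PM2.5 library and 3467 in the control library, 1.76-fold lower (1.66 to 1.85). Slc39a6 (chr18:24579881-24603817, minus strand) had 2025 counts in the PM2.5 library and 3712 in the control library, 1.97-fold lower (1.86 to 2.08). A processed pseudogene, Slc39a1-ps, is 97.7% identical to Slc39a1 over 973 bases but took 1 count in the PM2.5 library and 4 in the control library.

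Slc39a6 and Slc39a10, which form a complex, differed in size. Slc39a10 had 2492 counts in the PM2.5 library and 2702 in the control library, a ratio of 0.860 (0.814 to 0.908) that was just above 1 with library totals (log2 0.01). There were 0.813 Slc39a6 reads per Slc39a10 read in the PM2.5 library and 1.37 in the control library, a ratio of 0.591 (0.547 to 0.639).

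The importer with most counts was Slc39a8, which carries manganese, zinc and cadmium. It had 19122 counts in the PM2.5 library and 20070 in the control library, a ratio of 0.888 (0.871 to 0.906) that was 0.06 on the log2 scale, above equality, with library totals. Slc39a8 took 40.4% of the importers' counts (39.9 to 40.8) in the PM2.5 library and 36.7% (36.3 to 37.1) in the control library. Slc39a14, its nearest relative in transport, which also carries iron, had 1237 counts in the PM2.5 library and 1030 in the control library, a ratio of 1.12 (1.03 to 1.22). Slc39a13, mutated in a human form of Ehlers-Danlos syndrome, had 3024 counts in the PM2.5 library and 2256 in the control library, a ratio of 1.25 (1.18 to 1.32). These last genes lay above a ratio of 1 under every scaling without reaching 1.5-fold.

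The remaining importers were below 1.5-fold or rare. Slc39a4, the intestinal zinc importer mutated in human acrodermatitis enteropathica, had 5497 counts in the PM2.5 library and 5220 in the control library, a ratio of 0.982 (0.945 to 1.02) that was above 1 with library totals (log2 0.20) and the upper quartile (0.11). Slc39a9, of the Golgi, had 4689 counts in the PM2.5 library and 5742 in the control library (ratio 0.761, 0.732 to 0.791), and Slc39a11 had 931 in the PM2.5 library and 1085 in the control library (ratio 0.800, 0.732 to 0.874). Slc39a2 had 125 counts in the PM2.5 library and 144 in the control library, and Slc39a7, the zinc release channel of the endoplasmic reticulum, had 137 in the PM2.5 library and 151 in the control library, both with intervals that include 1. The count of Slc39a7 is uncertain, since 2084 of its 2584 exonic bases lie within Gm20427 on the same strand. Slc39a5, a gene of gut and pancreas, had 52 counts in the PM2.5 library and 27 in the control library (ratio 1.80, 1.11 to 2.97), and the brain gene Slc39a12 had 13 in the PM2.5 library and 5 in the control library (ratio 2.42, 0.811 to 8.68). Both had a mean below 1 CPM. Exons of Slc39a9 overlap Erh over 459 bases and those of Slc39a13 overlap Psmc3 over 215 bases, both on the opposite strand, and those of Slc39a2 overlap Mettl17 over 151 bases on the same strand.

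Levels between genes were compared per length, as RPKM on the principal transcript. In the PM2.5 library the order began with Atox1 at 111.6 RPKM, Slc39a8 at 92.8, Mt1 at 75.3, Slc39a1 at 40.0, Slc39a4 at 32.1 and Slc31a1 at 25.2, with Mt2 at rank 7 and 23.9 RPKM. Mt2 there overlapped both neighbours, Slc31a1 and Slc31a2 (21.7 RPKM), within counting error. In the control library it began with Slc39a8 at 104 RPKM and Mt1 at 89.5, followed by Slc39a1 at 66.1 and Atox1 at 65.6, whose counting intervals overlap, and Mt2 at 59.2. At the low end Mtf1 had 2.52 RPKM in the PM2.5 library and 3.90 in the control library. Of the pairs of neighbours in each order 13 of 30 overlapped in the PM2.5 library and 13 of 31 in the control library. The order near the top depends on which transcript length is used. With all exons of a gene merged, Mt1 was at rank 4 in the PM2.5 library and 5 in the control library. Mt2 was then at rank 7 in the PM2.5 library and 3 in the control library. By that length Slc39a1 (66.1 RPKM) and Atox1 (65.6 RPKM) led the control order, and Slc39a8 was at rank 4 with 45.2 RPKM.

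**Figure D3:**
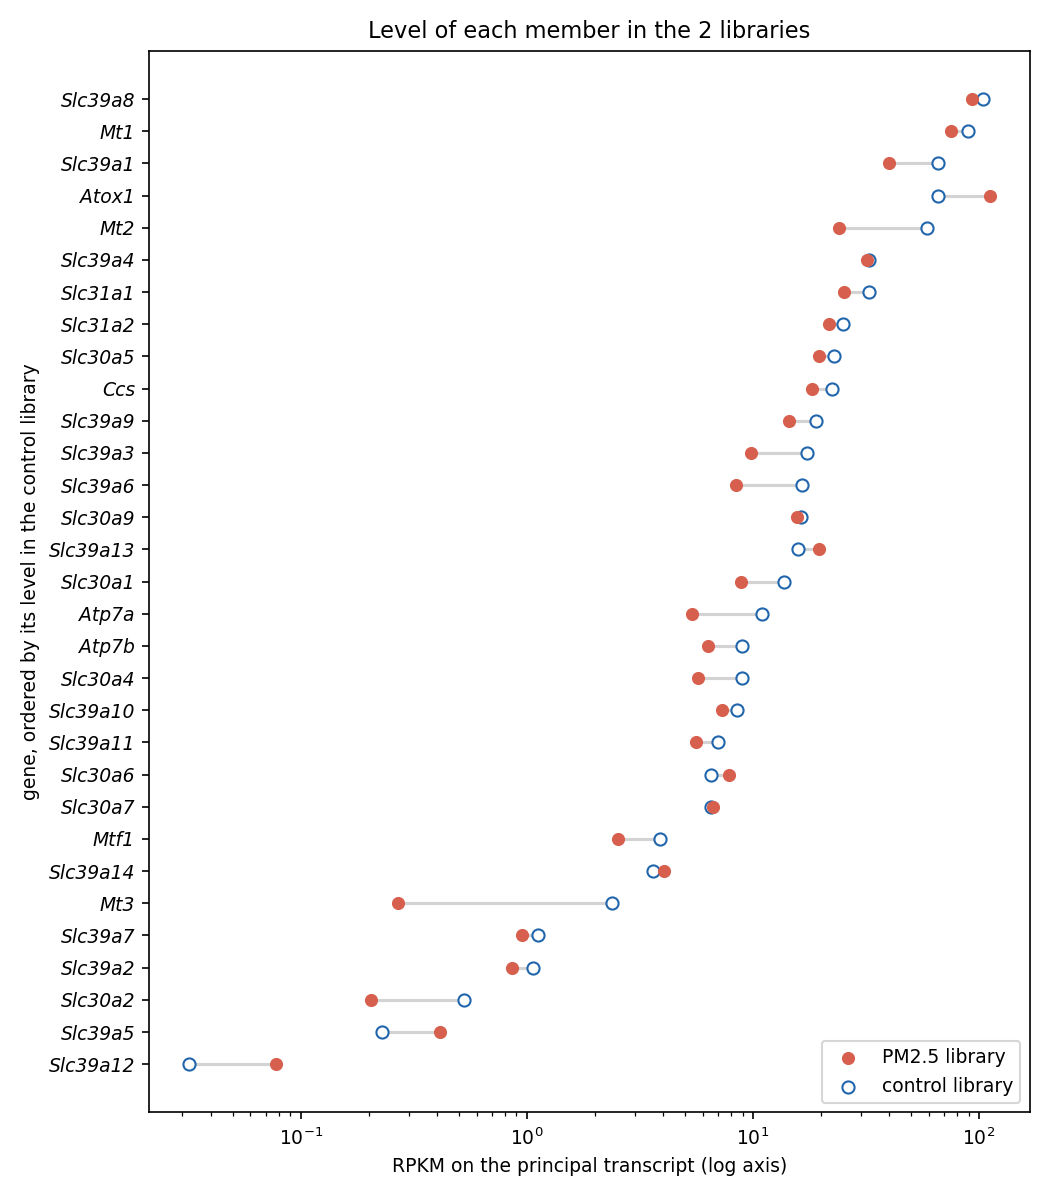
Level of each zinc and copper gene with at least 1 count in each library, in RPKM on a log axis, with filled points for the PM2.5 library and open points for the control library, ordered by the level in the control library. Atox1 stands out to the right of its control point (111.6 RPKM in the PM2.5 library, 65.6 RPKM in the control library), and Mt2 to the left of its own (23.9 RPKM in the PM2.5 library, 59.2 RPKM in the control library).

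Gene length moved with the ratio across all measured genes in these libraries, and its part in the members' ratios was not tested beyond the values that follow. The Spearman correlation of log2 ratio with merged exonic length was -0.31, a description across genes. The median log2 ratio was 0.34 in the tenth of genes with the shortest exons, of 1637 bases or less, and -0.39 in the tenth with the longest. Mt2 is among the shortest of all, and so lies farther from the trend than from equality: its log2 ratio was -1.31, and -1.91 with the trend removed, at percentile 0.639 of all measured genes. Mt1 was at -0.25, and at -0.66 with the trend removed. The merged exons of Mt1 span 1246 bases and its principal transcript 549, so that value depends on which length is used. For Atp7a the values were -1.03 and -0.86, for Slc39a6 -0.98 and -0.99, for Slc39a1 -0.73 and -0.91, and for Mtf1 -0.63 and -0.45. With the trend removed Atox1 was no longer called higher, Slc30a1 and Slc30a4 were just short of 1.5-fold lower, Mtf1 was further short of it, and Mt1 passed it.

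**Figure D4:**
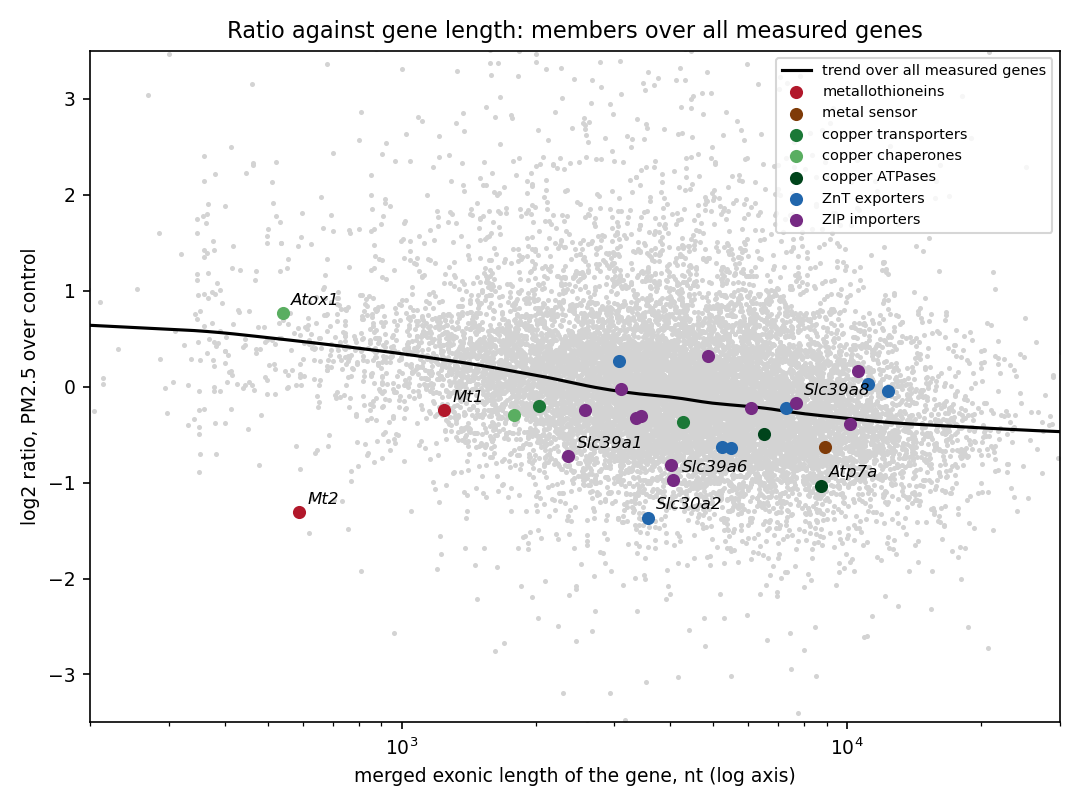
Log2 ratio (PM2.5 over control) against the merged exonic length of each gene on a log axis, with all measured genes in grey, the measured zinc and copper genes coloured by family, and the lowess trend over all measured genes as a black line. Atox1 (0.77) lies near the trend for genes of its length, and Mt2 (-1.31) far below it.

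Other genes that deliver copper or use it were described from lists. Of 15 copper delivery genes 14 were measured, and 2 were higher and 1 lower (median log2 ratio 0.19), shares at or below the 14.9% higher and 19.1% lower among all measured genes. Cox17, which carries copper to cytochrome oxidase, had 646 counts in the PM2.5 library and 94 in the control library, a ratio of 6.41 (5.15 to 8.04), but it shares 257 bases without a mismatch with Gm21987 and its count is uncertain. Coa6, another assembly factor of that oxidase, was at 1.56 (874 counts in the PM2.5 library and 521 in the control library). Steap3, a metal reductase, was 2.03-fold lower (1229 counts in the PM2.5 library and 2324 in the control library). Of 17 copper enzymes 13 were measured, and 2 were higher and 7 lower (median -0.65). The largest among the lower ones were lysyl oxidase Lox, 5.32-fold lower with 3370 counts in the PM2.5 library and 16708 in the control library, the ferroxidase Heph, 3.23-fold lower, and Loxl2, 2.83-fold lower, which shares 2348 bases with the pseudogene Gm21451. The diamine oxidase Aoc1 went the other way at a ratio of 3.58, with 703 counts in the PM2.5 library and 183 in the control library. Lox and Loxl2 crosslink collagen and elastin, and the fibroblast markers were lower too, with 5 of 6 lower, the other 1 higher, and a sum of 1418 CPM in the PM2.5 library and 3536 CPM in the control library. The part of those cells in the enzymes' values was not tested.

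Zinc enzymes, and targets of other signals that raise metallothionein genes, were described in the same way. The counts of called genes stand beside 14.9% higher and 19.1% lower among all measured genes. Of 13 carbonic anhydrases, zinc enzymes that hydrate carbon dioxide, 7 were measured, and 3 were higher and 1 lower (median 0.36). Car3, a muscle and fat enzyme, was at a ratio of 6.01 (13921 counts in the PM2.5 library and 2160 in the control library) and Car13 at 2.21, while Car2 was 1.63-fold lower. Car14 was at 1.57, but shares 447 bases with Aph1a. Glucocorticoids raise Mt1 and Mt2 transcription, and of 10 glucocorticoid target genes, all measured, 9 were lower and 0 higher. Their median log2 ratio was -1.18, and they summed to 951 CPM in the PM2.5 library and 1914 CPM in the control library. Zbtb16 was 3.57-fold lower, Pdk4 3.45-fold, Errfi1 2.75-fold and Sgk1 2.42-fold lower. Of 10 genes of the response to interleukin-6 and STAT3, which also raise metallothionein transcription, 2 were higher and 3 lower (median 0.21). Junb was at 1.85, Il6ra was 2.14-fold lower, Cebpd 1.74-fold and Stat3 itself 1.57-fold lower. The count of Cebpd is uncertain, since 563 bases of its transcript are also in Spidr. The part of these signals in the metallothionein values was not tested.

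Cell type markers differed between the libraries too, where 14.9% of all measured genes were higher and 19.1% lower. All 8 fat markers were higher, summing to 429 CPM in the PM2.5 library and 71.0 CPM in the control library, and all 6 neutrophil markers were higher, with 1599 CPM in the PM2.5 library and 484 CPM in the control library. Of 7 capillary endothelium markers 6 were lower, with 3866 CPM in the PM2.5 library and 8468 CPM in the control library, and all 4 measured red cell markers were lower, with 58.5 CPM in the PM2.5 library and 173 CPM in the control library. Among 7 type 2 cell markers 2 were lower and 0 higher, among 5 type 1 cell markers 0 differed at 1.5-fold, and among 6 alveolar macrophage markers 1 was higher and 1 lower. Of 4 club cell markers 3 were higher, of 4 ciliated cell markers 2 were higher, and of 5 cardiac muscle markers 2 were higher and 1 lower. No marker was at 0 in either library. The part of cell composition in the ratios of the zinc and copper genes was not tested.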

How the data were processed

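Messenger RNA of mouse lung was sequenced from 1 PM2.5 library and 1 control library, grouped by the exposure in the labels. Per the labels' protocols, the RNA was extracted with TRIzol, selected on mRNA beads and made into libraries with a stranded KAPA kit. HTSeq 0.6.0, TopHat2 2.1.1 and mm10 are named in the submitters' processing notes. What annotation was used for counting, and whether strand was, is not given in the sources used here. Deposited are unnormalized counts for each Ensembl gene.

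Of 37315 identifiers 35533 were found in GENCODE M21 (GRCm38). Slc39a1-ps, whose symbol matches too, is not protein-coding and was left out. Scaling was by TMM in edgeR 4.0.16, with factors 1.08 (PM2.5) and 0.923 (control). Ratios of CPM carry exact 95% Clopper-Pearson intervals on the share of counts, which cover counting error only, since reads without molecular identifiers are not independent molecules. With 1 library per group no test was made. Measured genes have a mean CPM of 1 or more, and calls need a 1.5-fold ratio whose interval leaves out 1. RPKM used the principal transcript. Near copies and overlaps were searched in the M21 transcripts, and promoter windows came from RefSeq (GRCm38.p6). The trend with exonic length was fitted by lowess (fraction 0.3, statsmodels 0.14.6).

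The members and lists were chosen with earlier results of these data known. All members are named. From each pathway list up to 4 genes past the 1.5-fold rule were named by the interval bound nearest to 1, or the 2 most abundant where none passed. Genes overlapping a member or flanking the metallothionein cluster were also allowed. Alternatives were other scalings (upper quartile, library totals, size factors of DESeq2 1.42.0, and TMM leaving out the 100 most abundant genes), other filters and sizes, thinning of the deeper library, and removal of the length trend. A protein-coding background, exclusion of overlapping members and merged exonic length were added after seeing the data. The ratios, intervals and calls were tested on simulated counts, which held counting error only and no length trend. The other steps were not simulated.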

Additional observations from a re-analysis of the deposited data

How the results depend on the processing

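No paired analysis was possible because each group has 1 library. The number of lower members, 9, was 4 with library totals and 3 at 2-fold, where 6.04% of all genes were lower. Without the members whose exons overlap another gene the number was 5 of 19. That stands beside 19.1% of all measured genes, from which overlapping genes were not left out. The number of higher members, 1, was 0 with the length trend removed, 0 at 2-fold and 2 without the filter on low values. In those settings 13.3%, 7.25% and 18.4% of all genes were higher. The members' median log2 ratio of -0.30 was -0.069 under scaling by totals, where the median of all genes was 0.14, and -0.16 under the upper quartile, where it was 0.05. Library totals also turned the split of all genes to 23.8% higher and 9.90% lower. The summed metallothionein log2 ratio of -0.59 was -0.36 under scaling by totals, -0.45 under the upper quartile and -1.06 with the length trend removed, and the cause of the length trend was not tested. The summed copper chaperone ratio of 1.34 went to -0.09 on the log2 scale with the length trend removed. The calls of the 10 called members held in 48 of 60 values under 6 settings, and 0 of those values changed sign. Depth limits Mt3, Slc30a2 and the other rare genes, whose intervals are wide, and no interval covers the variation between animals.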
